A study of Homo sapiens with 21 samples.

Results

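The 51 genes described here lie along the distal long arm of human chromosome 13, from OBI1 to CHAMP1, with other genes among them. They were chosen because their array signals had been seen to shift together in some clones of a glioblastoma line, so the clone differences that chose them are described below and not tested. Of the 51 members, 49 had a probe set that the array's annotation assigns to that gene alone, out of 18374 such genes on the array, and 43 of these had a mean log2 intensity above 7 over all arrays (8719 genes did). All 49 lie on chromosome 13 in the RefSeq annotation. ERCC5, a nuclease of nucleotide excision repair, was represented here by a probe set shared with another symbol, and UPF3A, a factor of nonsense-mediated decay, was not matched, so neither has a value. Of the measured members nearest the minimum of 7, GRTP1 averaged 7.03 and GAS6 7.04 just inside it, while IRS2 averaged 6.99 and TGDS 6.82 just outside.

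U-87MG is an established human glioblastoma cell line, and the series compared clones that stably carry parkin, a ubiquitin ligase of mitochondrial quality control, with clones that carry the vector alone. Each clone is 1 line, and the 3 arrays of a clone in a series may be technical repeats, since the labels do not say that they come from separate cultures. Clones PK7, PK19 and PK25 carry parkin and have 3 arrays each, all of a second array series, as the prefixes of the scanner files were read here. Clones V8, V17 and V22 carry the vector and have 3 arrays each in the first series, and V22 has 3 more in the second, which gives 21 arrays in all. Cells of every clone were grown on plates for 24 hours before total RNA was extracted, and no clone received a further treatment in the labels. The level of the introduced transcript is not reported here. Every difference below is a clone's mean log2 intensity minus that of V22 in the same series, so that -1 is a signal at 0.5 times that of V22.

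Neighbouring genes on a chromosome arm mostly have unrelated functions and separate promoters, and their transcripts are usually set one by one. When a long stretch of a chromosome is gained or lost, the transcripts of many of its genes tend to move together by a similar factor, and glioblastoma lines and clones derived from them often differ in such stretches. DNA was not measured in these arrays, so the number of copies of chromosome 13 in each clone was not tested. The members include the scaffold of a cullin ubiquitin ligase (CUL4A), a subunit of the anaphase-promoting complex (CDC16), the dimer partner of the E2F factors (TFDP1), the ligase that closes broken DNA ends (LIG4), a ligand of the TAM receptor kinases (GAS6) and an ephrin (EFNB2).

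The promoters of 3 members show how unlike these neighbours are in sequence: TFDP1 and CDC16 are cell cycle genes that were lower in V8, and ITGBL1, chosen after its values were seen, is the 1 member above 7 that was higher there. Each window runs from 250 bases before to 50 bases after the start of the transcript on the plus strand (RefSeq, GRCh38.p14), at chr13:113584503-113584802 for TFDP1, chr13:114234647-114234946 for CDC16 and chr13:101452425-101452724 for ITGBL1. Capitals mark the core of a GC box, GGGCGG, or its reverse complement. The TATA box motif TATAAA was searched on both strands too, and was found in none of the 3 windows.
TFDP1: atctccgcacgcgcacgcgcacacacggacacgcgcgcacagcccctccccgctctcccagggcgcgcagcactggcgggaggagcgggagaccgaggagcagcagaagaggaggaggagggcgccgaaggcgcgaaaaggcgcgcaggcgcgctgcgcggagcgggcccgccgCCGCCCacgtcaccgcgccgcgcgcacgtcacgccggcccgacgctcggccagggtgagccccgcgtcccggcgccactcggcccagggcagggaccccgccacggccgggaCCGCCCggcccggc
CDC16: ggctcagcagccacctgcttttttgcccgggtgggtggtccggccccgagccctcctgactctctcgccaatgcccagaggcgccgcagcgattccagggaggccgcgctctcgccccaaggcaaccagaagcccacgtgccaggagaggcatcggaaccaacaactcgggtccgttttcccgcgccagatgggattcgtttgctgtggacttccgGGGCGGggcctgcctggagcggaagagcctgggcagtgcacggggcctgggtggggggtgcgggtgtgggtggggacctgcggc
ITGBL1: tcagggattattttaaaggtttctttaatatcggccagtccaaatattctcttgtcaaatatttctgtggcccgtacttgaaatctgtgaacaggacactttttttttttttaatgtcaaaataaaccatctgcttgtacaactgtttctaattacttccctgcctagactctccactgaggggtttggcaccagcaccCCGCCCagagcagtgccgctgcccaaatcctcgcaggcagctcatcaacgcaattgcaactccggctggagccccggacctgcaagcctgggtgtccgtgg
The TFDP1 window holds 52 CpG dinucleotides and 2 GC box cores, the CDC16 window 23 CpG and 1 core, and the ITGBL1 window 9 CpG and 1 core. Of the members lower in V8, IPO5 (-0.92) and GPC6 (-1.02) had windows with still fewer CpG, 5 and 6. Whether CpG content goes with the direction in V8 was not tested. Promoters were found for 41 of the 43 members above 7, in 72 windows, with a median of 25.5 CpG. The windows of all 7222 matched genes above 7 had a median of 26.0, and all 35114 windows of the table had 14.0. A GC box core was present in 55.6% of the members' windows, 68.2% of those of all genes above 7 and 45% of the whole table, and TATAAA in 5.56%, 5.87% and 11.5% of the same sets. These matches are descriptions of letters, not of bound factors.

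The arrays differed in how close they stood to the other arrays of their clone, which bears on every value below. Over the 8719 genes above 7, the SD of the difference between an array and the mean of the other arrays of its clone and series was 0.111 to 0.200 for most arrays. It was 0.341 for PK7 set 2, 0.308 for V8 set 2, 0.246 for PK19 set 2 and 0.238 for PK25 set 2, and 0.244 for PK25 set 3. Set 2 of V17 and V22 and set 5 of V22 stood furthest within their own trios too, at 0.162 to 0.181. The leading counts are therefore also given without set 2 together with V22 set 5, and without set 3 together with V22 set 6, both chosen after the data were seen. As a check of the line, the markers of glia and neural stem cells vimentin (VIM, mean 12.76), CD44 (11.84) and nestin (NES, 7.51) were above 7, while GFAP (6.29) and SOX2 (6.21) were not. Among markers of other cells, 0 of 3 endothelial, 1 of 4 blood (CD68), 1 of 4 epithelial (KRT18) and 1 of 4 neuronal genes (SNAP25) were above 7, and the leukocyte marker PTPRC averaged 3.12. These are bulk RNA samples, so a clone in which fewer cells express a gene cannot be told apart from one in which every cell holds less of its RNA.

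In the vector clone V8, 42 of the 43 members above 7 had a lower mean signal than in V22, with a median difference of -0.73 (a ratio of 0.604). In the parkin clone PK25, 40 were lower, with a median of -0.25 (a ratio of 0.838), and all 40 of these were also lower in V8. In PK19, 32 of 43 were higher than in V22, with a median of 0.17, and in PK7 the members split into 22 higher and 21 lower around a median of 0.01. V17, the other vector clone, stayed close to V22: its median was -0.00, and 41 of 43 members lay within 0.25 of it. This was not particular to the members, since the SD of the V17 differences was 0.07 over all genes above 7 and 0.10 over the members. All 8719 genes above 7 had a median difference of -0.05 in PK7, -0.02 in PK19, -0.03 in PK25, -0.01 in V8 and 0.02 in V17.

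The shift was present on each array of V8 and PK25. Relative to the V22 mean of the same series, the median of the 43 members was -0.68, -0.72 and -0.74 on the 3 V8 arrays and -0.21, -0.18 and -0.37 on the 3 PK25 arrays. It was 0.13, 0.25 and 0.16 on the PK19 arrays, -0.02, -0.02 and 0.01 on the PK7 arrays and 0.01, -0.02 and 0.04 on the V17 arrays. The V22 arrays themselves spread from -0.04 to 0.03 in the first series and from -0.03 to 0.03 in the second, so V8, PK25 and PK19 lay outside that spread on every array and PK7 and V17 lay inside it, apart from 1 V17 array at its edge. The lowest PK25 array, set 3, also had the lowest median over all genes above 7 among the PK25 arrays (-0.11). Without set 2 and V22 set 5, 42 members were lower in V8, 40 in PK25 and 31 were higher in PK19; without set 3 and V22 set 6 these counts were 42, 37 and 30.

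**Figure D1:**
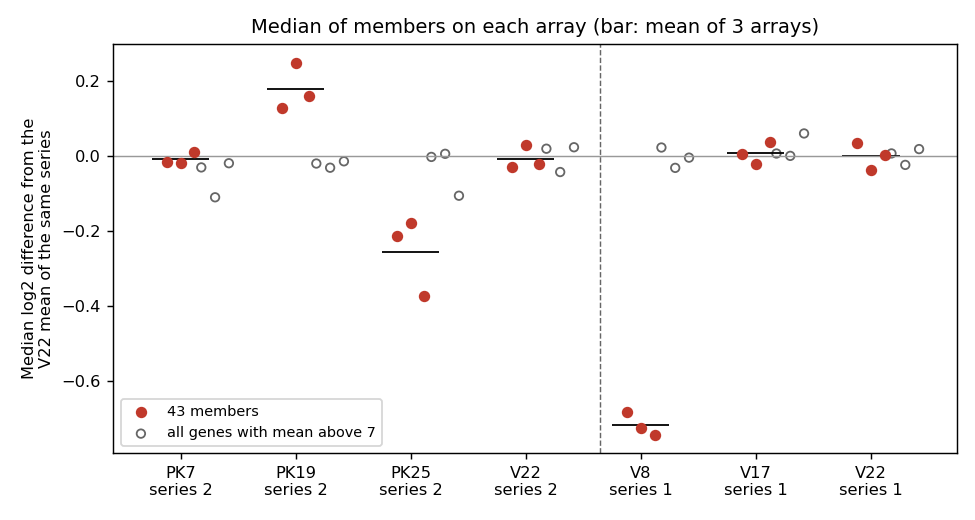
Median log2 difference of the 43 members above 7 from the V22 mean of the same array series, for each of the 21 arrays (filled points; bar, mean of 3 arrays), with the median of all genes above 7 on the same array (open points). The V8 arrays lie at -0.68, -0.72 and -0.74 and the PK25 arrays at -0.21, -0.18 and -0.37, while V17 and V22 lie near 0.

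Counts of members whose arrays did not overlap with V22 are given beside the share of all 26947 probe sets that did the same, and since the members were chosen on these differences nothing is read from them. All 3 V8 arrays lay below all 3 V22 arrays for 38 members (all probe sets, 12.2%) and above them for 1 (12.2%), and limma called 36 lower (4.22%) and 0 higher (3.78%) at an adjusted p under 0.05. For PK25, 24 members had all arrays below V22 (8.51%) and 0 all above (7.74%), and limma called 4 lower (0.939%) and 0 higher (0.427%). PK19 had 18 members with all arrays above V22 (15.5%) and 3 with all below (15.7%), with 15 called higher (6.65%) and 3 lower (7.4%). PK7 had 11 of each (above 15.5%, below 16.9%), with 5 called each way (higher 7.11%, lower 8.11%). In V17 limma called none of the members, with 0 at an unadjusted p under 0.05 (all probe sets, 2.71%), and none of all probe sets at an adjusted p under 0.05 (0% lower, 0% higher), while 0 members had all V17 arrays below V22 (all probe sets, 3.03%) and 3 all above (5.68%). V22 is the shared reference of each of these comparisons, so they are not independent of one another.

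The members did not shift by 1 common amount. In V8 the differences ran from -1.37 for FARP1 to 0.22 for ITGBL1, with quartiles of -0.83 and -0.58, 35 members below -0.5 and 6 at or below -1. PK25 had a narrower range for most members, with quartiles of -0.36 and -0.14, although FARP1 stood at -1.36. PK19 and PK7 were more scattered, with ranges of -0.87 to 0.87 and -1.18 to 1.15. V8 was the lowest of the 5 clones for 39 of 43 members, was further below V22 than PK25 was for 40, and PK19 was the highest clone for 23. Cut into 3 runs of 15, 14 and 14 members along the chromosome, the V8 medians were -0.72, -0.74 and -0.74, and the PK25 medians -0.27, -0.19 and -0.26, so neither clone was lower towards one end. The 6 measured members at or below 7 (GPC5, TGDS, CLYBL, GGACT, IRS2 and ATP11A) were also all below V22 in V8, by -0.51 for IRS2 and -0.61 for CLYBL but by only -0.09 for GGACT.

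**Figure D2:**
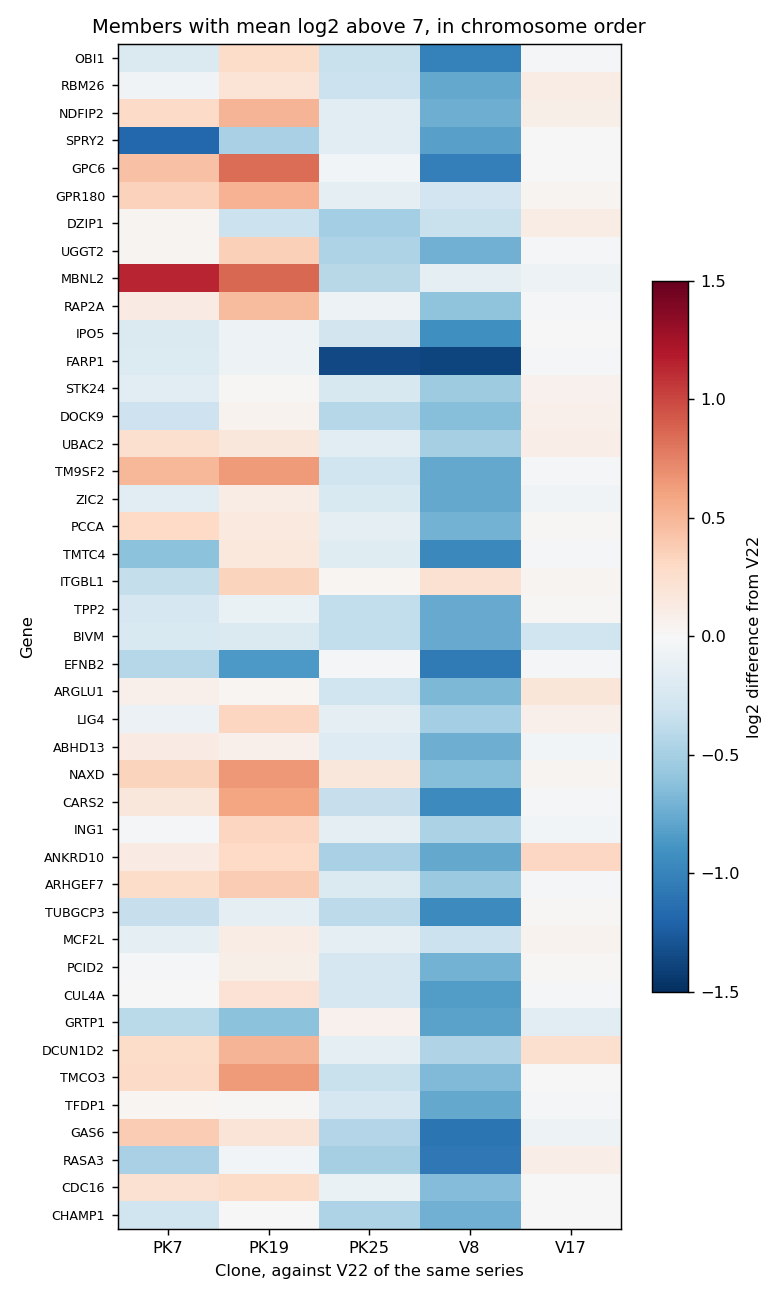
Log2 difference of each of the 43 members above 7 (rows, in chromosome order) from V22 of the same series in the 5 other clones (columns), on a colour scale from blue, lower, to red, higher. V8 is blue in 42 rows and PK25 in 40, mostly paler, and single rows such as MBNL2 and SPRY2 stand out in PK7.

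In V8 and PK25, the genes of the span that are not members moved in the same direction as the members. These are SLITRK5, ABCC4, DNAJC3, TEX30, POGLUT2, PRECSIT and LAMP1, the 7 other genes above 7 between OBI1 and CHAMP1. All 7 were below V22 both in V8 (median -0.77, range -1.26 to -0.37) and in PK25 (median -0.32, range -0.60 to -0.18). They did not share the rise of the members in PK19, where 4 of the 7 were below V22, with a median of -0.28. In PK7, 4 of the 7 were below V22, with a median of -0.16. The 38 other measured genes of the span at or below 7 are not described here. LAMP1, a major membrane protein of lysosomes, read 10.09, 10.01 and 10.06 in PK25 against 10.32, 10.39 and 10.38 in V22 of that series. In the first series it read 10.05, 9.18 and 9.74 in V8, 10.44, 10.31 and 10.49 in V17 and 10.48, 10.44 and 10.35 in V22. LAMP1 was thus below V22 by -0.77 in V8 and -0.31 in PK25 without overlap, while V17 overlapped with V22. ABCC4, an export pump of the ABC family, differed by -0.83 in V8 and -0.35 in PK25, and DNAJC3, a chaperone of the endoplasmic reticulum, by -0.59 and -0.23 in the same clones.

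The span that was chosen does not mark where the shift begins in V8. The 3 genes above 7 next to OBI1 on the side of the centromere, LMO7, KCTD12 and MYCBP2, stood at -1.36, -1.06 and -0.75 in V8. MYCBP2, a large ubiquitin ligase, read 7.64, 7.64 and 7.57 in V8, 8.44, 8.31 and 8.52 in V17 and 8.54, 8.20 and 8.35 in V22 of the first series. Along the chromosome, the 10 genes above 7 from BORA to MYCBP2 were all lower in V8 (median -0.76) and 9 of 10 were lower in PK25 (median -0.18), a boundary chosen after the values were seen. BORA, an activator of mitotic kinases, differed by -0.64 in V8, and DIAPH3, a formin and the gene above 7 just before it, by 0.10. Before BORA, the 90 genes above 7 had medians of 0.09 in V8 and -0.05 in PK25, and 68 of them were higher in V8 than in V22. The exception in the run was KLF5, a Krüppel-like transcription factor, which was higher in PK25 (0.59) and lower in V8 (-0.62).

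**Figure D3:**
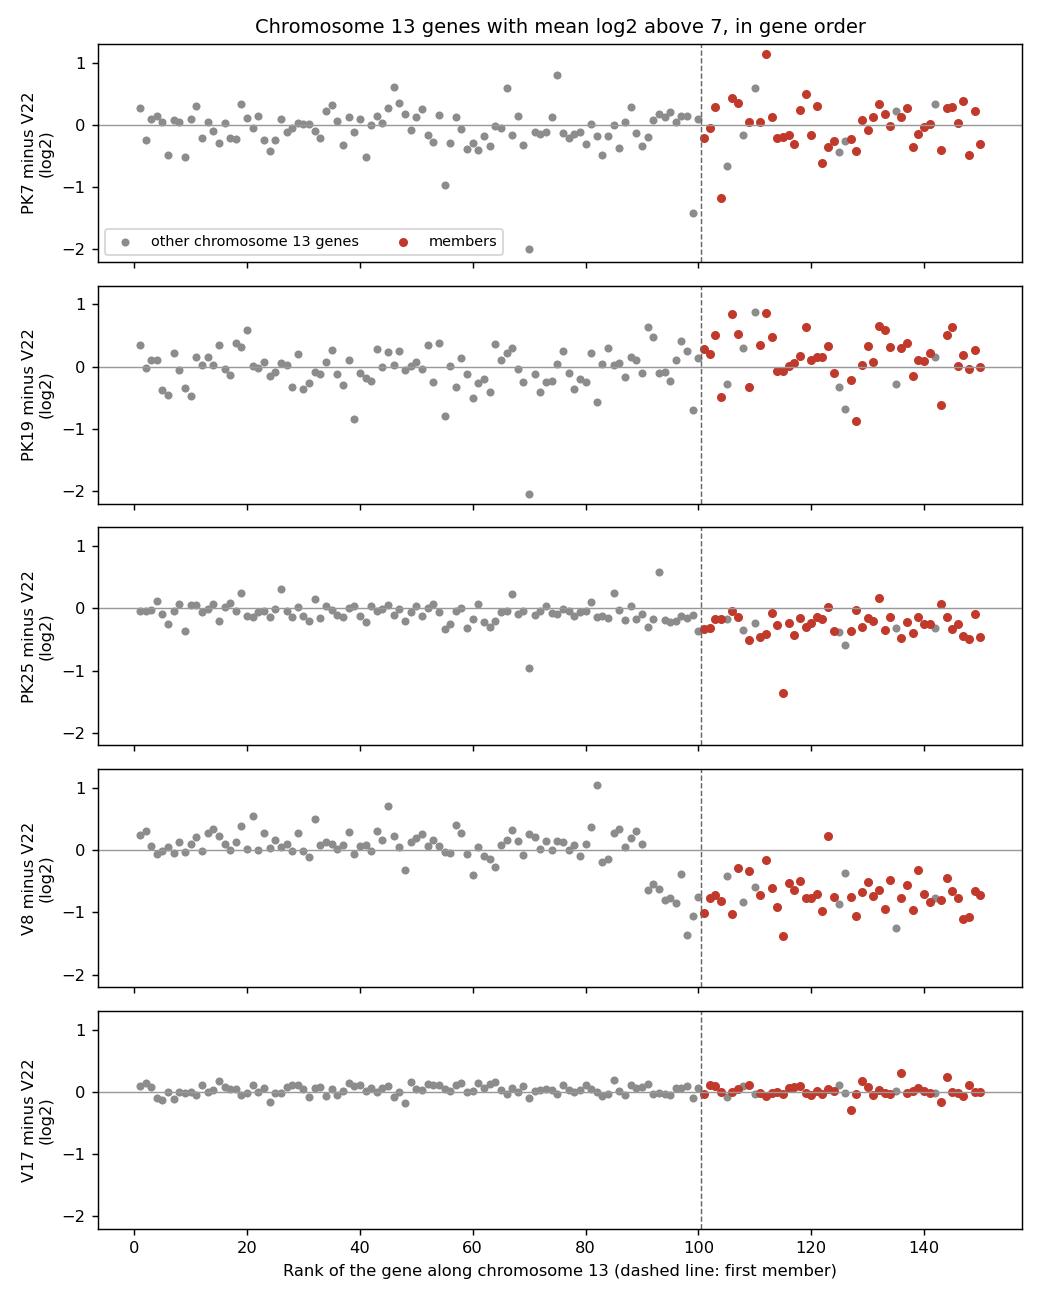
Log2 difference from V22 for the 150 chromosome 13 genes with a mean above 7, ranked along the chromosome, with 1 panel for each clone; red points are members and the dashed line marks OBI1. In V8 the points lie near 0.09 up to rank 90 and near the level of the members from rank 91, BORA, to the end, PK25 shows a smaller offset, and V17 lies along 0.

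Ordered by what their products do, the members of each role held the same sign in V8, with the exception of ITGBL1. The ubiquitin and NEDD8 pathway is represented by OBI1, a ligase that modifies the origin recognition complex, CUL4A and CDC16, the adaptor NDFIP2, which activates NEDD4-family ligases, UBAC2 of the endoplasmic reticulum and DCUN1D2, a co-factor for attaching NEDD8 to cullins. Among the 6 members of this role above 7, 6 were below V22 in V8, 6 in PK25, 0 in PK19 and 1 in PK7. OBI1 read 8.28, 8.49 and 8.41 on the V8 arrays, 9.26, 9.41 and 9.44 on the V17 arrays and 9.36, 9.34 and 9.51 on the V22 arrays of the first series. For OBI1 the second series gave 9.29, 8.66 and 9.31 in PK7, 9.59, 9.50 and 9.66 in PK19, 9.09, 8.99 and 8.84 in PK25 and 9.30, 9.29 and 9.32 in V22. All 3 V8 and all 3 PK25 arrays of OBI1 were below V22, by -1.01 and -0.33, all 3 PK19 arrays were above it (0.28), and in PK7 only the set 2 array was apart. CUL4A read 8.88, 8.60 and 8.56 on the V8 arrays, 9.48, 9.58 and 9.46 on the V17 arrays and 9.48, 9.60 and 9.49 on the V22 arrays of the first series. For CUL4A the second series gave 9.62, 9.32 and 9.60 in PK7, 9.69, 9.75 and 9.72 in PK19, 9.36, 9.23 and 9.15 in PK25 and 9.47, 9.52 and 9.51 in V22. CUL4A differed by -0.84 in V8 and -0.25 in PK25, both without overlap, and by 0.22 in PK19, where every array was above V22. CDC16 read 8.40, 8.29 and 8.33 in V8, 8.96, 9.05 and 8.93 in V17 and 8.96, 9.00 and 9.00 in V22 of the first series, a difference of -0.65 for V8. In PK25 it differed by only -0.10, with 8.99, 8.84 and 8.77 against 8.97, 8.99 and 8.93 in V22, so 1 of the 3 arrays overlapped with V22. NDFIP2 (-0.73), UBAC2 (-0.50) and DCUN1D2 (-0.45) completed the role in V8, and the same 3 were higher in PK7 and PK19.

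The cell cycle members are TFDP1, TUBGCP3, a subunit of the gamma-tubulin complex that nucleates microtubules, ING1, a chromatin reader, and CHAMP1, which takes part in attaching kinetochores to the spindle. Among the 4 members of this role above 7, 4 were below V22 in V8, 4 in PK25, 2 in PK19 and 3 in PK7. TFDP1 read 10.29, 10.38 and 10.48 on the V8 arrays, 11.16, 11.02 and 11.23 on the V17 arrays and 11.14, 11.06 and 11.24 on the V22 arrays of the first series. For TFDP1 the second series gave 11.43, 11.06 and 11.44 in PK7, 11.26, 11.35 and 11.27 in PK19, 11.18, 11.05 and 10.85 in PK25 and 11.26, 11.32 and 11.27 in V22. Every V8 array of TFDP1 was below every V22 array (-0.76), and in PK25 (-0.26) the set 3 array was the furthest below. TUBGCP3 read 7.88, 7.51 and 8.07 on the V8 arrays, 8.82, 8.59 and 8.95 on the V17 arrays and 8.82, 8.64 and 8.86 on the V22 arrays of the first series. For TUBGCP3 the second series gave 8.55, 8.01 and 8.60 in PK7, 8.61, 8.54 and 8.63 in PK19, 8.39, 8.30 and 8.34 in PK25 and 8.62, 8.89 and 8.70 in V22. TUBGCP3 was lower in V8 (-0.95), PK25 (-0.39) and PK7 (-0.35) with no overlap, but the PK7 difference came mostly from its set 2 array and was -0.09 without set 2 and V22 set 5. ING1 differed by -0.47 and CHAMP1 by -0.72 in V8. The 1 measured member of the DNA repair role is LIG4, which seals double-strand breaks in non-homologous end joining. LIG4 read 7.95, 8.12 and 7.85 on the V8 arrays, 8.57, 8.53 and 8.59 on the V17 arrays and 8.55, 8.37 and 8.53 on the V22 arrays of the first series. For LIG4 the second series gave 8.38, 8.08 and 8.42 in PK7, 8.67, 8.69 and 8.75 in PK19, 8.29, 8.32 and 8.08 in PK25 and 8.41, 8.35 and 8.37 in V22. LIG4 lay below V22 on every V8 array (-0.51) and every PK25 array (-0.15, and -0.08 without set 3 and V22 set 6) and above it on every PK19 array (0.33).

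RNA processing and transport between nucleus and cytoplasm form the next role: IPO5 imports proteins into the nucleus, ARGLU1 acts in splicing and transcription, MBNL2 is a splicing regulator, RBM26 binds RNA and PCID2 takes part in mRNA export. Among the 5 members of this role above 7, 5 were below V22 in V8, 5 in PK25, 1 in PK19 and 3 in PK7. IPO5 read 10.34, 10.25 and 10.29 on the V8 arrays, 11.15, 11.20 and 11.28 on the V17 arrays and 11.18, 11.17 and 11.28 on the V22 arrays of the first series. For IPO5 the second series gave 11.33, 10.83 and 11.36 in PK7, 11.30, 11.21 and 11.43 in PK19, 11.21, 11.11 and 11.03 in PK25 and 11.37, 11.40 and 11.40 in V22. The V8 arrays of IPO5 were below V22 by -0.92 on average, and the PK25 arrays were below by -0.27 without overlap. ARGLU1 read 9.49, 9.63 and 9.42 on the V8 arrays, 10.37, 10.37 and 10.35 on the V17 arrays and 10.23, 10.21 and 10.10 on the V22 arrays of the first series. For ARGLU1 the second series gave 9.84, 10.34 and 9.79 in PK7, 9.65, 10.35 and 9.81 in PK19, 9.58, 10.03 and 9.23 in PK25 and 9.81, 10.26 and 9.66 in V22. ARGLU1 was lower on every V8 array (-0.67). In the second series the set 2 arrays and V22 set 5 were higher than the others in every clone, and PK25 (-0.30) overlapped with V22. Without set 2 and V22 set 5, PK25 differed by -0.33 for ARGLU1 and no longer overlapped with V22. MBNL2 read 8.08, 8.80 and 8.21 on the V8 arrays, 8.30, 8.62 and 8.40 on the V17 arrays and 8.36, 8.80 and 8.38 on the V22 arrays of the first series. For MBNL2 the second series gave 9.58, 9.92 and 9.71 in PK7, 9.49, 9.45 and 9.43 in PK19, 8.06, 8.54 and 7.93 in PK25 and 8.67, 8.57 and 8.54 in V22. MBNL2 departed from its neighbours: V8 overlapped with V22 (-0.15), while all arrays of PK7 (1.15) and PK19 (0.87) were above V22. PK25 was at -0.41 and overlapped with V22 through its set 2 array. RBM26 (-0.77) and PCID2 (-0.71) were close to the median of the members in V8, and another, dimmer probe set of PCID2 (mean 6.53) gave -0.69 in V8 and -0.32 in PK25.

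Signalling members include the ligands EFNB2, an ephrin for Eph receptors, and GAS6, the heparan sulphate proteoglycan GPC6, the receptor-like membrane protein GPR180, SPRY2, which restrains signalling from receptor tyrosine kinases, and the kinase STK24. Among the 6 members of this role above 7, 6 were below V22 in V8, 6 in PK25, 2 in PK19 and 3 in PK7. The median of the role was -0.92 in V8 and -0.15 in PK25. EFNB2 read 8.51, 8.54 and 8.63 on the V8 arrays, 9.54, 9.52 and 9.70 on the V17 arrays and 9.66, 9.50 and 9.69 on the V22 arrays of the first series. For EFNB2 the second series gave 9.55, 8.62 and 9.66 in PK7, 8.78, 8.89 and 8.84 in PK19, 9.89, 9.50 and 9.62 in PK25 and 9.67, 9.70 and 9.73 in V22. EFNB2 was lower in V8 (-1.06) and in PK19 (-0.87) on every array, PK7 was lower mainly through its set 2 array, and PK25 overlapped with V22 (-0.03). GAS6 read 6.12, 5.91 and 6.19 on the V8 arrays, 7.06, 6.91 and 7.32 on the V17 arrays and 7.10, 7.36 and 7.06 on the V22 arrays of the first series. For GAS6 the second series gave 7.35, 8.18 and 7.23 in PK7, 7.36, 7.56 and 7.25 in PK19, 6.63, 6.85 and 6.79 in PK25 and 7.28, 7.18 and 7.15 in V22. GAS6 was lower on every V8 (-1.10) and PK25 (-0.44) array, and its values in those clones fell under the minimum of 7. SPRY2 read 9.45, 9.29 and 9.38 on the V8 arrays, 10.19, 10.20 and 10.14 on the V17 arrays and 10.27, 10.12 and 10.16 on the V22 arrays of the first series. For SPRY2 the second series gave 9.26, 8.84 and 9.25 in PK7, 9.82, 9.72 and 9.90 in PK19, 10.24, 10.01 and 10.16 in PK25 and 10.34, 10.29 and 10.27 in V22. SPRY2 was lower in V8 (-0.81) but lower still in PK7 (-1.18), with all parkin clones below V22 without overlap, PK25 by -0.17, or -0.11 without set 2 and V22 set 5. GPR180 read 8.34, 8.57 and 8.35 on the V8 arrays, 8.64, 8.89 and 8.73 on the V17 arrays and 8.52, 8.93 and 8.68 on the V22 arrays of the first series. For GPR180 the second series gave 9.08, 8.78 and 9.06 in PK7, 9.07, 9.25 and 9.12 in PK19, 8.50, 8.63 and 8.32 in PK25 and 8.60, 8.62 and 8.66 in V22. GPR180 overlapped with V22 in V8 (-0.29) and in PK25 (-0.14), and was above it on every PK7 (0.35) and PK19 (0.52) array. GPC6 stood at -1.02 in V8 and 0.84 in PK19, and STK24 stood at -0.53 in V8. IRS2, a substrate of the insulin receptor, lay just under the minimum. IRS2 read 6.76, 6.50 and 6.60 on the V8 arrays, 7.11, 7.14 and 7.18 on the V17 arrays and 7.11, 7.29 and 7.00 on the V22 arrays of the first series. For IRS2 the second series gave 6.91, 7.21 and 6.81 in PK7, 7.00, 7.05 and 7.00 in PK19, 6.77, 6.95 and 7.15 in PK25 and 7.13, 7.04 and 7.05 in V22. IRS2 was lower on every V8 array (-0.51), and every parkin clone overlapped with V22.

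The small GTPase members are RAP2A, RASA3, which switches off Ras and Rap proteins, the exchange factors FARP1, DOCK9, ARHGEF7 and MCF2L, and GRTP1, a protein with a TBC domain. Among the 7 members of this role above 7, 7 were below V22 in V8, 6 in PK25, 3 in PK19 and 5 in PK7. FARP1 read 6.62, 6.67 and 6.69 on the V8 arrays, 7.95, 7.85 and 8.20 on the V17 arrays and 8.08, 7.92 and 8.10 on the V22 arrays of the first series. For FARP1 the second series gave 7.66, 7.87 and 7.70 in PK7, 7.83, 7.96 and 7.82 in PK19, 6.43, 6.79 and 6.54 in PK25 and 7.85, 8.05 and 7.93 in V22. FARP1 was the member furthest below V22 in both clones, at -1.37 in V8 and -1.36 in PK25, with a gap of over 1 between the nearest arrays, whereas PK7, PK19 and V17 overlapped with V22. Its values in V8 and PK25 fell under the minimum of 7. RASA3 read 8.30, 8.09 and 8.28 on the V8 arrays, 9.45, 9.26 and 9.49 on the V17 arrays and 9.34, 9.25 and 9.30 on the V22 arrays of the first series. For RASA3 the second series gave 8.88, 8.63 and 9.02 in PK7, 9.27, 9.24 and 9.35 in PK19, 8.96, 8.68 and 8.86 in PK25 and 9.32, 9.26 and 9.41 in V22. RASA3 differed by -1.07 in V8 and -0.49 in PK25 and also by -0.48 in PK7, each without overlap. RAP2A read 8.74, 8.63 and 8.78 on the V8 arrays, 9.22, 9.30 and 9.38 on the V17 arrays and 9.29, 9.28 and 9.39 on the V22 arrays of the first series. For RAP2A the second series gave 9.60, 9.61 and 9.56 in PK7, 9.80, 10.05 and 9.95 in PK19, 9.38, 9.57 and 9.22 in PK25 and 9.43, 9.47 and 9.47 in V22. RAP2A was lower in V8 (-0.60), overlapped in PK25 (-0.07) and was above V22 on every PK19 array (0.47). GRTP1 read 6.75, 6.50 and 6.55 on the V8 arrays, 7.43, 7.06 and 7.19 on the V17 arrays and 7.47, 7.39 and 7.32 on the V22 arrays of the first series. For GRTP1 the second series gave 6.99, 6.77 and 6.72 in PK7, 6.57, 6.52 and 6.75 in PK19, 7.31, 7.05 and 7.53 in PK25 and 7.16, 7.48 and 7.06 in V22. GRTP1 was lower in V8 (-0.80), PK19 (-0.62) and PK7 (-0.41), and was 1 of the 3 members that were not lower in PK25 (0.07), together with NAXD and ITGBL1. For GRTP1 the PK7 difference was -0.26 without set 2 and V22 set 5, and the PK25 difference turned to -0.13 without set 3 and V22 set 6, while that of ITGBL1 in PK25 turned to -0.04 without set 2 and V22 set 5. DOCK9 (-0.63), ARHGEF7 (-0.56) and MCF2L (-0.32) were lower in V8 on every array.

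Members of the membrane and secretory system are TM9SF2 of Golgi and endosomal membranes, TMCO3, a predicted cation antiporter that the array's table lists as SLC9D1, UGGT2, a glucosyltransferase of glycoprotein quality control, and TMTC4, a transferase that adds mannose to cadherins. Among the 4 members of this role above 7, 4 were below V22 in V8, 4 in PK25, 0 in PK19 and 1 in PK7. TM9SF2 read 10.29, 10.12 and 10.23 on the V8 arrays, 10.93, 10.96 and 10.99 on the V17 arrays and 10.94, 11.03 and 10.98 on the V22 arrays of the first series. For TM9SF2 the second series gave 11.37, 11.47 and 11.34 in PK7, 11.46, 11.57 and 11.58 in PK19, 10.68, 10.57 and 10.56 in PK25 and 10.89, 10.94 and 10.87 in V22. TM9SF2 separated fully from V22 in each of these clones: it was lower in V8 (-0.77) and PK25 (-0.30), and higher in PK7 (0.50) and PK19 (0.64). TMCO3 read 8.87, 8.93 and 8.98 on the V8 arrays, 9.67, 9.45 and 9.64 on the V17 arrays and 9.62, 9.51 and 9.62 on the V22 arrays of the first series. For TMCO3 the second series gave 9.76, 10.10 and 9.80 in PK7, 10.17, 10.39 and 10.18 in PK19, 9.24, 9.41 and 9.16 in PK25 and 9.50, 9.71 and 9.59 in V22. TMCO3 had the same pattern, at -0.66 in V8, -0.33 in PK25, 0.64 in PK19 and 0.29 in PK7. UGGT2 (-0.72) and TMTC4 (-0.97) were also lower in V8, TMTC4 also in PK7 (-0.61). Metabolic members are CARS2, which charges mitochondrial tRNA with cysteine, TPP2, a large cytosolic peptidase, PCCA, a subunit of propionyl-CoA carboxylase, NAXD, which repairs damaged NADH, and ABHD13, a hydrolase. Among the 5 members of this role above 7, 5 were below V22 in V8, 4 in PK25, 1 in PK19 and 1 in PK7. CARS2 read 9.80, 9.24 and 9.65 on the V8 arrays, 10.52, 10.47 and 10.49 on the V17 arrays and 10.53, 10.53 and 10.48 on the V22 arrays of the first series. For CARS2 the second series gave 10.56, 10.37 and 10.65 in PK7, 10.98, 10.82 and 11.01 in PK19, 10.07, 10.08 and 9.86 in PK25 and 10.30, 10.40 and 10.35 in V22. CARS2 was lower on every V8 (-0.95) and PK25 (-0.34) array and higher on every PK19 array (0.59). TPP2 read 9.12, 9.45 and 8.96 on the V8 arrays, 9.91, 10.03 and 9.93 on the V17 arrays and 9.93, 9.99 and 9.89 on the V22 arrays of the first series. For TPP2 the second series gave 9.96, 9.64 and 9.98 in PK7, 9.90, 10.08 and 10.07 in PK19, 9.73, 9.96 and 9.56 in PK25 and 10.08, 10.22 and 10.04 in V22. TPP2 was lower in V8 (-0.76) and PK25 (-0.36) without overlap, and within PK25 set 2 lay closest to V22. PCCA stood at -0.71, ABHD13 at -0.73 and NAXD at -0.63 in V8, but another, dimmer probe set of NAXD (mean 6.11) gave -0.03, so the 2 probe sets of NAXD disagree. TGDS, named as a glucose dehydratase, lay just under the minimum. TGDS read 6.50, 6.62 and 6.34 on the V8 arrays, 6.79, 7.24 and 6.92 on the V17 arrays and 6.82, 6.82 and 6.80 on the V22 arrays of the first series. For TGDS the second series gave 7.28, 6.72 and 7.01 in PK7, 7.26, 7.27 and 7.27 in PK19, 6.80, 6.63 and 6.08 in PK25 and 6.63, 6.80 and 6.68 in V22. TGDS was lower on every V8 array (-0.33), overlapped in PK25 (-0.20) and was higher on every PK19 array (0.56).

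The remaining members are ZIC2, a zinc finger transcription factor of neural development, DZIP1, a protein of cilia, ITGBL1, a secreted protein with integrin-like repeats, ANKRD10 and BIVM. Among the 5 members of this role above 7, 4 were below V22 in V8, 4 in PK25, 2 in PK19 and 3 in PK7. ITGBL1 read 8.50, 8.64 and 8.68 on the V8 arrays, 8.37, 8.40 and 8.50 on the V17 arrays and 8.32, 8.48 and 8.35 on the V22 arrays of the first series. For ITGBL1 the second series gave 8.12, 7.84 and 8.13 in PK7, 8.82, 8.62 and 8.72 in PK19, 8.48, 8.43 and 8.35 in PK25 and 8.44, 8.25 and 8.47 in V22. ITGBL1 was above V22 on every V8 array (0.22), the opposite of its neighbours; it was higher in PK19 (0.33), lower in PK7 (-0.36) and overlapped in PK25 (0.03). ANKRD10 read 7.60, 7.61 and 7.34 on the V8 arrays, 8.71, 8.54 and 8.53 on the V17 arrays and 8.45, 8.24 and 8.15 on the V22 arrays of the first series. For ANKRD10 the second series gave 8.02, 8.59 and 8.05 in PK7, 8.24, 8.68 and 8.25 in PK19, 7.53, 8.00 and 7.30 in PK25 and 7.89, 8.63 and 7.76 in V22. ANKRD10 was lower on every V8 array (-0.77). In the second series its spread between sets exceeded the difference of PK25 (-0.48), since set 2 and V22 set 5 were higher in every clone. Without set 2 and V22 set 5, PK25 differed by -0.41 for ANKRD10 and no longer overlapped with V22. ZIC2 (-0.77) was near the median in V8. BIVM stood at -0.75 in V8 but overlapped with V22, and without set 2 of both clones it stood at -0.31. DZIP1 was below V22 on every PK25 array (-0.51), while in V8 it overlapped with V22 (-0.33, and -0.56 without set 2 of both clones).

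**Figure D4:**
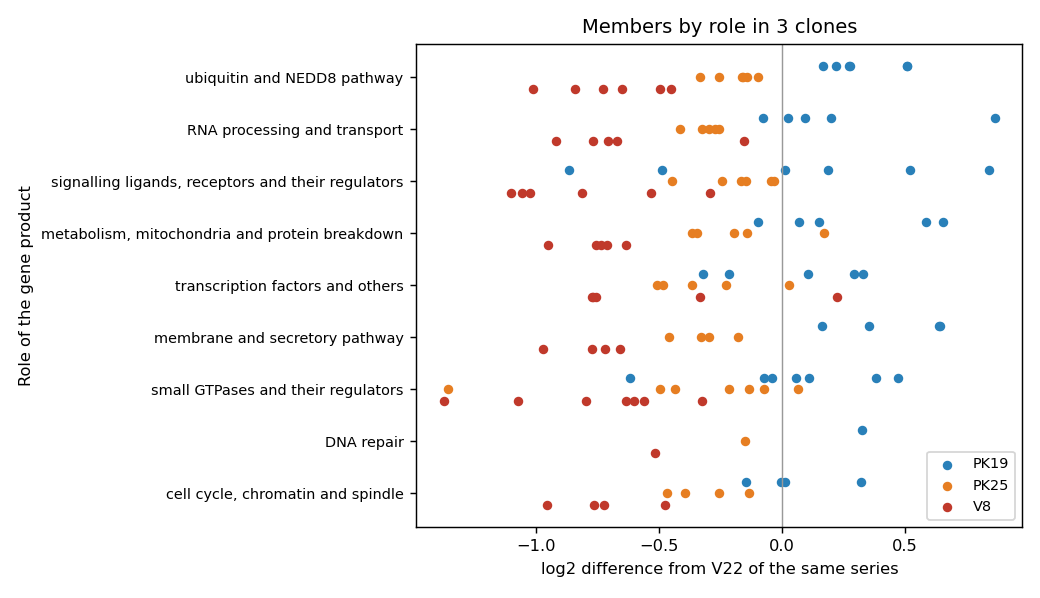
Log2 difference from V22 of the same series for the 43 members above 7, grouped by the role of the gene product, in PK19 (blue), PK25 (orange) and V8 (red). In V8 all members but ITGBL1 lie left of 0, in PK25 all but NAXD, GRTP1 and ITGBL1, and PK19 spreads over both sides with a median of 0.17.

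The difference of V22 between the array series, which shows how the same clone moved between them, did not itself choose the members. The V22 arrays of both series were the references in that choice, so nothing is read from the calls below. Of the 43 members, 21 were lower and 22 higher in V22 of the second series than in V22 of the first, with a median difference of 0.00 and a range of -0.27 to 0.29. limma called 0 of the 43 at an adjusted p under 0.05 and 1 at an unadjusted p under 0.05 (all probe sets, 8.75%), and of all probe sets it called, after adjustment, 0.0186% lower and 0.0111% higher. CHAMP1 (0.29), ARGLU1 (-0.27) and TMTC4 (-0.26) moved furthest, with adjusted p of 0.466, 0.762 and 0.686 (limma). Groups of arrays did not overlap for 6 members below and 8 above, against 11.2% and 9.04% of all probe sets.

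The series was designed to compare parkin with vector clones, and for these genes that comparison depended on V8. With clone means, and the first series linked to the second through V22, 35 of 43 members were higher in the parkin than in the vector clones, with a median difference of 0.18. Leaving out V8 gave a median of -0.06, with 17 of 43 higher. The parkin clones set against the V22 arrays of their own series gave -0.02. Without V8 the vector clones are V17 and V22, whose difference had an SD of 0.07 over all genes above 7. The difference of V22 between the array series had an SD of 0.16 over the same genes. The fit without V8 still counts V17 and V22 as separate clones. GPC6 had a difference of 0.76 with all 3 vector clones and 0.42 without V8, and CUL4A had 0.28 and -0.00. MBNL2 kept 0.61 and 0.57, and SPRY2 had -0.34 and -0.61. These parkin comparisons are built from the same clone differences that chose the members, so nothing is read from the calls. limma on clone means called 0 of the 43 members in each of them. At an unadjusted p under 0.05 (limma) there were 1, 1 and 0 members, beside 14.1%, 10.7% and 1.73% of all probe sets. At an adjusted p under 0.05 limma called few or none of all probe sets (0.00371% with all vector clones, 0.0111% without V8, that is 0.00742% lower and 0.00371% higher, and 0% within the second series).

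**Figure D5:**
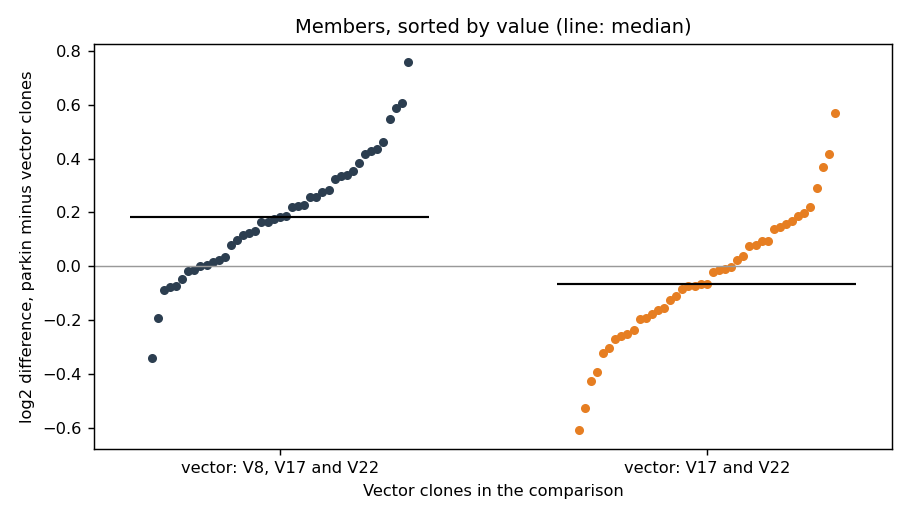
Log2 difference of parkin minus vector clones for the 43 members above 7, sorted by value, with all 3 vector clones (left) and without V8 (right); the line is the median. The median is 0.18 with V8 and -0.06 without it.

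Products of several members act in complexes or pathways with proteins encoded on other chromosomes, and a list of 58 such partners was set beside them, of which 55 were measured and 47 were above 7. The partners had medians of -0.17 in PK7, -0.07 in PK19, -0.04 in PK25, -0.09 in V8 and 0.01 in V17, with 28 of 47 below V22 in V8 and 29 in PK25. In V8, limma called 2 of the 47 lower and 0 higher, with 11 at an unadjusted p under 0.05 (all probe sets, 19.2%). In PK25 it called 1 lower and 0 higher. Of all probe sets, 4.22% and 0.939% were called lower in V8 and PK25. All probe sets include those at or below 7, while the 47 partners are above it. Of the 8719 genes above 7, 2743 were at an unadjusted p under 0.05 in V8. limma called 673 of these 8719 lower in V8, 156 in PK25, 1274 in PK19 and 1528 in PK7. It called 585, 61, 893 and 991 of them higher, in the same order. ERCC1, which with ERCC4 cuts damaged DNA in nucleotide excision repair, was at -0.72 (SE 0.11, limma adjusted p = 0.000351) in V8, and IRS1, the relative of IRS2, at -0.34 (SE 0.09, limma adjusted p = 0.0275). ERCC1 was listed as a partner of ERCC5, which has no value here, and IRS1 as a partner of IRS2, which is below 7. DCLRE1C, the Artemis nuclease that trims ends for LIG4, is among the 8 partners below 7 and was at 0.53 (SE 0.13, limma adjusted p = 0.012). RBL2, a pocket protein that binds E2F complexes, was the partner called in PK25, at -0.59 (SE 0.14, limma adjusted p = 0.0432). Of 3 direct partners chosen after their values were seen, none was called in V8: DDB1, which joins substrates to CUL4A, was at 0.05 (SE 0.11, limma adjusted p = 0.898), CUL4B, its close relative, at -0.28 (SE 0.10, limma adjusted p = 0.0924), and XRCC4, which binds LIG4, at 0.25 (SE 0.16, limma adjusted p = 0.438). PK19 had 8 partners called lower and 3 higher (all probe sets, 7.4% and 6.65%). The smallest p-values there belonged to TUBGCP2 of the gamma-tubulin complex, at -1.40 (SE 0.10, limma adjusted p = 4.86e-09), EPHB4, a receptor of EFNB2, at -1.19 (SE 0.12, limma adjusted p = 3.59e-07), and PROS1, a relative of GAS6, at 0.99 (SE 0.11, limma adjusted p = 1.04e-06). PK7 had 12 called lower and 4 higher (8.11% and 7.11%), among them ERCC1 at -0.95 (SE 0.11, limma adjusted p = 5.78e-06), TUBGCP2 at -0.78 (SE 0.10, limma adjusted p = 1.61e-05) and PROS1 at 0.80 (SE 0.11, limma adjusted p = 1.99e-05). All of these adjusted p rest on arrays as observations, and so on array-to-array spread within a clone alone.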

How the data were processed

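Per the labels' protocols, total RNA of each clone was labelled with a whole-transcript kit for Affymetrix arrays, and the series table holds 26947 probe sets on 21 arrays. Per the submitters' processing notes the deposited values are RMA intensities, with no version given; they are on a linear scale, and a joint normalization of the 21 arrays is not given in the sources used here. Their log2 was taken here without a further correction. Array medians of the log2 values lay between 6.21 and 6.37, and precision is limited by how many arrays and clones there are, since no depth is counted.

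Probe sets were named through the array's annotation table, using those with 1 symbol and, for each gene, the brightest. A probe set's level is not set against another's. Gene order, chromosomes and promoters came from RefSeq (GRCh38.p14). The series of an array was read from its scanner file prefix, which is an assumption. The members and all gene lists were chosen with earlier results of these data known. Values in every array are given for the 2 members with the highest mean in each role, the 3 lowest and the 3 highest in V8, and 2 on either side of the minimum; values of CDC16 were added after they were seen, because its promoter is shown.

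limma 3.58.1 (lmFit, eBayes) in R 4.3.3 was run on all probe sets with Benjamini-Hochberg adjustment, with arrays as observations and a term for each clone and series, and on clone means for parkin against vector clones, after shifting the first series, probe set by probe set, by the difference of V22 between the series. Of the limma fits, only the one with arrays as observations and a term for each clone and series was tested on simulated data. Python 3.11.15 was used for the rest. Alternatives changed the reference, the minimum, the probe sets, the normalization, the arrays or clones included and a block for the set number.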

Additional observations from a re-analysis of the deposited data

Results flagged for a closer look

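In each set of 6 V22 arrays, a value was picked out when its gap to the nearest other array was large relative to the range of the set, which chance does in about 1 of 20 sets. Of 50 sets examined, 3 were picked out. OBI1 read 9.51 on V22 set 3, while the other V22 arrays lay between 9.29 and 9.36. GPC5, a proteoglycan below the minimum of 7, read 5.04 on V22 set 2, with the others between 4.63 and 4.77. EFNB2 read 9.50 on V22 set 2, with the others between 9.66 and 9.73.

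The median of the members was on opposite sides of V22 in 2 parkin clones. It was 0.17 in PK19 and -0.25 in PK25, a difference of 0.42, and every PK19 array was above and every PK25 array below the V22 mean. This difference was not tested.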

How the results depend on the processing

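Over the settings tried, the median difference of the members from V22 ranged from -0.75 to -0.69 in V8, from -0.29 to -0.21 in PK25, from 0.12 to 0.25 in PK19, from -0.04 to 0.07 in PK7 and from -0.03 to 0.02 in V17. All 42 members that were lower in V8 were lower in every setting, and 36 of the 40 in PK25 were. Leaving out 1 array of each trio gave -0.749 to -0.691 for V8 and -0.0434 to 0.0741 for PK7. The PK7 median was -0.0263 against all 6 V22 arrays, -0.0386 with arrays centred on their medians and 0.0406 with quantile normalization, so its sign was not settled. With a minimum of 8 the PK19 median was 0.246. The median of V22 between the series was -0.0375 to 0.0067 when 1 array was left out, lowest without set 5. The parkin minus vector median was -0.0642 without V8, which by construction takes out the lowest vector values, and -0.0642 to 0.323 over the 6 fits that each left out 1 clone.

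Set numbers were not taken to pair the arrays, since not every pair of the same set correlated above 0.1. Deviations from the clone mean correlated at 0.06 to 0.22 within a set and -0.14 to 0.05 between sets of the first series. In the second series they correlated at -0.09 to 0.38 within and -0.36 to 0.32 between sets. The V22 arrays of the second series, whose set numbers match those of no other clone, were left out of these correlations. In the first series every value within a set was above every value between sets, a hint from the data and not from the labels. With a replicate block for the set number, arrays as observations and no shift between series, limma called 5 members between parkin and vector clones, against 0 on clone means, and the median was 0.22. That fit held no V22 array of the second series, so its parkin and vector arrays also differed in array series. The same replicate block within the first series called 37 members in V8, against 36 without it, and 0 in V17. Shares over all probe sets are not set beside the counts of these block fits, so nothing is read from them.

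Each clone is 1 line, V22 is the only link between the series, and the labels do not name separate cultures behind the arrays of a clone. DNA was not measured.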
